A study of Mus musculus with 22 samples.

Results

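The mitosis genes are a set of 58 protein-coding genes, named by symbol, whose products carry a cell from the end of G2 to the separation of its daughters. All 58 were found in the deposited RNA table of 36555 genes, and the rule that names them uses no measured value, though the set was proposed with earlier results of these data known. They were measured by RNA sequencing in mouse liver and liver tumors in 4 groups. YAP1on tumors were 4 hepatoblastoma tumors of 1 mouse on doxycycline. Day 6 tumors were 4 tumors of another mouse, 6 days after doxycycline was taken away and YAP1 with it. Both tumor groups carry the transgene Tg(CAG-rtTA3)4288Slowe on a B6N.FVB(Cg) background (/J), in which the CAG promoter, active in most cell types, drives the doxycycline-dependent activator rtTA3. The hbHep samples were livers of 3 mice at days 121, 114 and 117, genotype FAH Delta Exon 5. By the title of the series, these livers bear hepatocyte-like cells that formed from tumor cells after YAP1 was inhibited. FAH liver came from 3 mice of the same FAH genotype, with WT also in their titles, kept on NTBC, a drug that spares mice lacking this enzyme of tyrosine breakdown. The hbHep titles do not say whether those mice were on NTBC. A difference in this drug between hbHep and FAH liver therefore cannot be told apart from the other differences between them. Ages, sexes and the cells that each host liver still held are not given in the labels. Each tumor group is 1 mouse, so treatment cannot be told apart from the mouse, and strain differs between the tumors and the other groups. Hepatoblastoma is a liver cancer of early childhood, and YAP1 is a transcriptional coactivator restrained by the Hippo pathway.

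Mitosis begins when cyclin B and CDK1 become active. The duplicated chromosomes then attach to a spindle of microtubules through their kinetochores, and a checkpoint holds the anaphase promoting complex (APC/C) inactive until every kinetochore is attached. Release of the APC/C splits the sister chromatids, and a contractile ring finishes division. Most of the genes involved are transcribed late in the cell cycle, through the MuvB complex with B-MYB and FOXM1, and are silenced in resting cells. Adult hepatocytes are largely at rest, and many are polyploid because cytokinesis is incomplete.

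MuvB is known to contact a short promoter sequence, the cell cycle homology region, often found near CCAAT boxes, which the factor NF-Y binds. RefSeq promoters (GRCm38.p6, 250 bases before to 50 after the start site) were at hand for 49 of the 58 genes, with 52 start sites. Those of Ccna2, Cdc25c, Pbk, Foxm1, Tpx2, Spc24, Incenp, Aurkb and Kif20a were not in the table used. The letters TTTGAA or TTCGAA, on either strand, stood in 42 of 52 windows (80.8%), against 17.4% of 20577 promoters of all genes and 15.2% of the 15695 promoters of genes tested below. TTCGAA reads the same on both strands, and TTTGAA on the other strand reads TTCAAA. Within 50 bases of the start site, a match stood in 36 of 52 windows (69.2%) against 4.27% of all promoters. CCAAT, or ATTGG on the other strand, was found in 40 of 52 (76.9%) against 37.8%. Both kinds stood together in 37 (71.2%) against 6.91%. The other sequences searched on both strands were GGCGGGA (12 of 52, 23.1%, against 15.1%), GCGCGAA (2 of 52, 3.85%, against 2.08%) and TAAACA (6 of 52, 11.5%, against 11.5%). These are matches of letters, not measured binding sites, and some start sites of 1 gene share part of their window.

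The windows below, from 100 bases before the start site to 50 after, show the arrangement. Ccnb2, Depdc1a, Ttk and Cdc20 fell furthest at day 6 in their classes, Racgap1 stands for cytokinesis, and Birc5 fell furthest of the passenger complex but held neither kind of match in 150 bases. Capitals mark both kinds of match, on either strand, and each sequence reads 5′ to 3′ on the strand of its gene. Ccnb2 lies at chr9:70421505-70421654 (minus strand), Depdc1a at chr3:159495333-159495482 (plus), Ttk at chr9:83834589-83834738 (plus), Cdc20 at chr4:118437294-118437443 (minus), Racgap1 at chr15:99651607-99651756 (minus) and Birc5 at chr11:117849137-117849286 (plus).
Ccnb2: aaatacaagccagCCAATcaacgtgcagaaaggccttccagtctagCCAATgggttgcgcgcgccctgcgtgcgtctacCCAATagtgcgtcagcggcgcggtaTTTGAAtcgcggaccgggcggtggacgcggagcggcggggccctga
Depdc1a: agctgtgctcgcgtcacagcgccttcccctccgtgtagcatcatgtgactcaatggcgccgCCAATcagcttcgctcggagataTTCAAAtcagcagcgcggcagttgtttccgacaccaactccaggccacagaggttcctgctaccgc
Ttk: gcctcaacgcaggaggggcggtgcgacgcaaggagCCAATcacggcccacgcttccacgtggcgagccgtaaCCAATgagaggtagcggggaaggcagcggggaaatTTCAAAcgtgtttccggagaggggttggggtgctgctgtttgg
Cdc20: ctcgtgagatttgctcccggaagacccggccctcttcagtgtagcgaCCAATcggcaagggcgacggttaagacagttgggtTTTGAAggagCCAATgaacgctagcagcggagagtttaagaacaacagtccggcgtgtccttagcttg
Racgap1: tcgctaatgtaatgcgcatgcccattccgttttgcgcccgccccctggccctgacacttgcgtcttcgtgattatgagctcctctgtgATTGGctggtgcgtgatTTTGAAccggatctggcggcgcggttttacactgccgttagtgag
Birc5: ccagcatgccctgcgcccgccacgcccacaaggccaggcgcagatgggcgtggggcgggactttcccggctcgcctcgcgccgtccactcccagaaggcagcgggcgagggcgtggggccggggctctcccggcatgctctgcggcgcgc
In the first 5 windows the 6-base match follows at least 1 of the CCAAT boxes and lies close to the start site. In the plot of match positions the 6-base matches of the set gathered around the start site, but the arrangement was not shared by all: 15 of the 49 genes had no such match within 50 bases, and Kif15, Anln, Ndc80, Kif20b and Kif2c had a match but no CCAAT box.

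**Figure D1:**
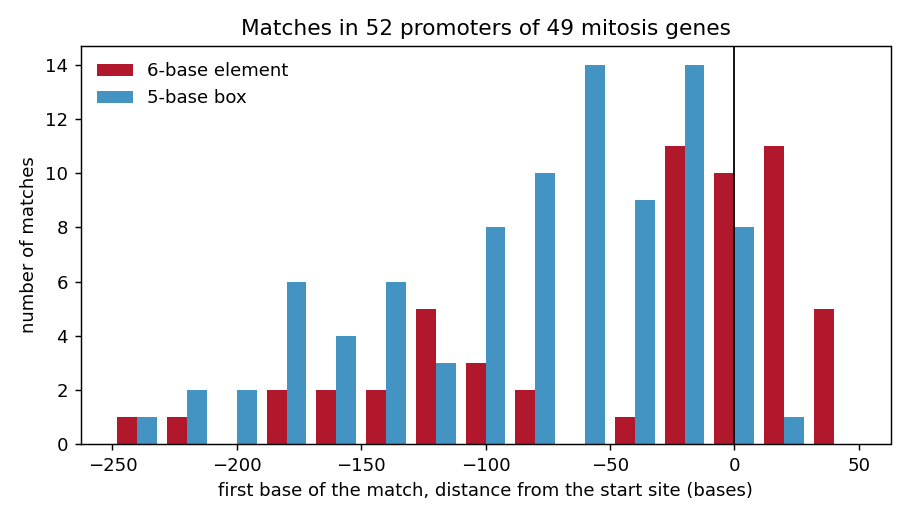
Number of matches (vertical axis) by distance in bases from the start site (horizontal axis, bins of equal width) in 52 promoters of 49 mitosis genes. Red bars are the 6-base element and blue bars the 5-base box described in the text. The red bars pile up around the start site, where 36 of 52 windows hold a match within 50 bases.

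Values are given as abundance, the deposited scaled reads per base after a small rescaling between libraries, so that levels of different genes can be compared. The targeted gene was checked first. Yap1 stood at 5309, 9790, 7872 and 10806 in YAP1on tumors, 1254, 1166, 1166 and 1097 at day 6, 932, 1147 and 1310 in the 3 hbHep mice and 1301, 1142 and 1353 in FAH liver. YAP1on tumors lay above all other samples, and the 3 other groups overlapped. Total signal per library ran from 15.99 to 42.12 M, with M for the metric prefix mega. The value of 1 read of the same gene was estimated from the most common ratio to 1 day 6 library, over low genes seen in few libraries. Relative to the library where it was lowest, it was 1 to 1.47 in YAP1on tumors, 1.36 to 1.89 at day 6, 1.97 to 2.83 in hbHep libraries and 2.79 to 3.07 in FAH liver. The estimate can rest on few genes, such as 15 of 75 compared in the first library of hbHep mouse 3. By this estimate a given low value rests on fewer reads in FAH liver, and in a single hbHep library, than in the tumors. Each hbHep sample below is the mean of 2 libraries, so 1 read weighs less in it than in a single library. Ccna2, Foxm1, Aurka, Nusap1, Cdc20, Anln, Prc1 and Kif20a overlap another protein-coding gene, and whether reads were counted by strand is not given, so part of their reads could belong to the neighbor. Hepatocyte markers (7 genes) were present in every sample, with summed levels of 202200 to 354300 in YAP1on tumors, 495500 to 631900 at day 6, 370200 to 586300 in the hbHep mice and 999200 to 1224000 in the FAH mice. Tissue pieces were sequenced whole, so fewer dividing cells and less RNA per cell cannot be told apart for any result below.

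The mitosis genes were lower as a body 6 days after YAP1 was switched off. Of 58 genes, 54 fell, 1 rose and 3 did not pass the test, in limma fits across all genes with Benjamini-Hochberg adjustment at 0.05. Over the 17958 genes tested, 10.9% were lower and 12.8% higher. The median log2 difference of the set was -2.67, a 6.36-fold lower level, beside 0.02 over all genes. Mean abundance at day 6 was 14.8% of that in YAP1on tumors at the median, from 3.69% for Depdc1a to 177% for Pttg1. In 56 of 58 genes the 4 day 6 tumors did not overlap the 4 YAP1on tumors. The share of all tested genes without overlap was not computed, so this count has no background beside it.

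In hbHep the set stood between these levels. Against YAP1on tumors 52 genes were lower, 1 was higher and 5 did not pass (background 26.5% lower and 28.7% higher), with a median log2 difference of -1.22. Mean abundance was 42.4% of the YAP1on level at the median (range 22.02% to 269.7%). Against day 6 tumors 45 genes were higher, 1 was lower and 12 did not pass (background 24.1% higher and 21.7% lower), with a median of 1.23 beside -0.02 over all genes. In the same comparison 5 of 6 stellate and fibroblast markers, 6 of 8 markers of T, NK and B cells, 3 of 5 bile duct markers and 3 of 7 erythroid markers were lower in hbHep, and none of these lists had a marker that was higher. Of fetal liver and tumor markers 3 of 4 were higher and 0 lower. Of 7 macrophage markers 1 was higher and 2 were lower, of 7 hepatocyte markers 2 and 2, and of 6 endothelial markers 0 and 2. The part of these cells in the difference was not tested. Against FAH liver 52 were higher, 0 lower and 6 did not pass (background 20.0% higher and 17.0% lower), with a median of 1.63 beside 0.00. YAP1on tumors themselves were above FAH liver for 56 genes and below it for 1 (background 34.6% higher and 33.3% lower), with a median of 2.91. FAH liver stood at 13.4% of the YAP1on level at the median. These comparisons share samples, so they are not independent of each other. All 58 genes passed the filter on low values, but a gene could pass it through the group where it was high.

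**Figure D2:**
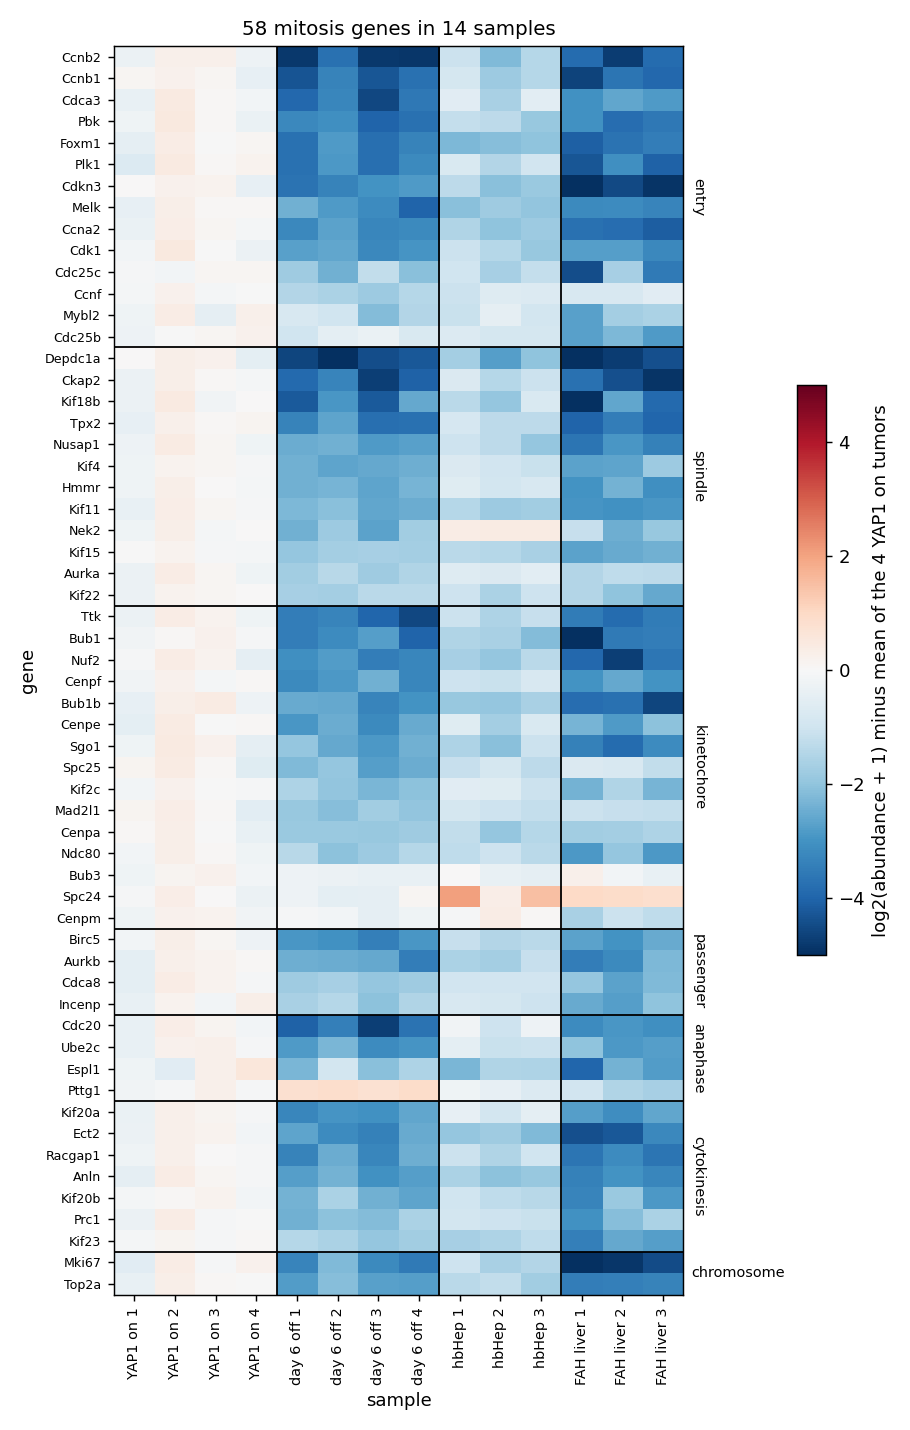
Each row is 1 of the 58 mitosis genes and each column 1 of the 14 samples; color is log2(abundance + 1) minus the mean of the 4 YAP1on tumors (blue lower, red higher). The day 6 columns are blue for 54 genes that fell, the hbHep columns are paler, and the rows of Pttg1 at day 6 and Spc24 in hbHep are red.

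The 14 genes of entry into mitosis all fell at day 6, with a median 8.87-fold lower level and levels at 10.2% of YAP1on tumors at the median. Ccnb2 (ENSMUSG00000032218, chromosome 9, 70407689 to 70421554), a B-type cyclin that activates CDK1, was at 508, 735, 743 and 515 in YAP1on tumors, 20.9, 45.5, 21.03 and 20.2 at day 6, 295, 133 and 226 in hbHep and 41.97, 21.7 and 42.3 in FAH liver. Its day 6 and FAH values overlapped, and the hbHep values lay between those and the YAP1on tumors. It was 23.4-fold lower at day 6 (log2 difference -4.55, SE 0.30, adjusted p = 9.27e-08) and 7.92-fold higher in hbHep than at day 6 (adjusted p = 4.49e-06). Ccna2, cyclin A2, which acts in S phase and early mitosis, was at 517, 839, 697 and 621 in YAP1on tumors, 70.2, 103, 66.9 and 71.9 at day 6, 232, 163 and 185 in hbHep and 48.6, 46.6 and 36.997 in FAH liver. The 4 groups did not overlap for Ccna2, in the order YAP1on, hbHep, day 6 and FAH liver. Cdk1, the kinase itself, stood at 444, 683, 487 and 398 in YAP1on tumors, 73.2, 81.04, 51.4 and 62.8 at day 6, 236, 181 and 133 in hbHep and 72.9, 72.7 and 51.8 in FAH liver. Its day 6 and FAH levels differed by a log2 value of 0.02 (95% interval -0.47 to 0.52), while hbHep lay above both. With libraries scaled to the same total signal Cdk1 passed as higher at day 6 than in FAH liver (0.71, adjusted p = 0.01004). With quantile normalization that difference was -0.41 and did not pass (adjusted p = 0.142). Ccnb1, the other main partner of CDK1, averaged 385 in YAP1on tumors, 25.4 at day 6, 150.4 in hbHep and 22.3 in FAH liver.

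Among regulators of CDK1, Cdc25b, a phosphatase that removes the inhibitory phosphates of CDK1, was at 60.3, 71.7, 77.6 and 83.8 in YAP1on tumors, 36.02, 51.9, 57.2 and 43.1 at day 6, 44.5, 38.6 and 39.1 in hbHep and 10.4, 14.4 and 9.24 in FAH liver. Its fall at day 6 was small (log2 difference -0.64, SE 0.21, adjusted p = 0.0335). The call ended when day 6 tumor 1 was left out (adjusted p = 0.116), or tumor 4 (adjusted p = 0.0832), when YAP1on tumor 2 (adjusted p = 0.0681), 3 (adjusted p = 0.08002) or 4 (adjusted p = 0.0913) was left out, and with quantile normalization (adjusted p = 0.102). Cdc25b stayed above FAH liver at day 6 (3.89-fold, adjusted p = 2.24e-06) and did not pass between hbHep and day 6 (adjusted p = 0.518). Its relative Cdc25c fell by 1.87 on the log2 scale. Cdkn3, a phosphatase that acts on CDKs, was at 274, 311, 307 and 205 in YAP1on tumors, 20.2, 25.7, 33.5 and 36.98 at day 6, 110.1, 63.3 and 74.9 in hbHep and 6.77, 11.1 and 8.03 in FAH liver. It had a log2 difference of 4.84 between YAP1on tumors and FAH liver (adjusted p = 6.01e-10), among the 3 widest of the set. Plk1, the kinase that triggers entry and later steps, went from a mean of 105 to 9.10 at day 6 and stood at 48.5 in hbHep.

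Ccnf, a cyclin that works as the substrate receptor of a ubiquitin ligase, was at 136, 171, 136 and 142 in YAP1on tumors, 51.8, 47.9, 40.3 and 53.5 at day 6, 69.5, 91.8 and 89.9 in hbHep and 82.1, 83.8 and 97.6 in FAH liver. Its hbHep and FAH values did not overlap those of day 6, and it was lower at day 6 than in FAH liver (log2 difference -0.85, adjusted p = 4.33e-04). Cdca3, a trigger of mitotic entry that is itself degraded in G1, was at 211, 378, 285 and 252 in YAP1on tumors, 17.3, 27.4, 10.8 and 22.3 at day 6, 185, 89.5 and 192 in hbHep and 32.6, 44.9 and 37.9 in FAH liver. It too was lower at day 6 than in FAH liver (-1.01, adjusted p = 0.0115), and 7.62-fold higher in hbHep than at day 6 (adjusted p = 3.59e-06). With libraries scaled to the same total signal neither Ccnf (adjusted p = 0.460) nor Cdca3 (adjusted p = 0.328) passed between day 6 and FAH liver.

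Both transcription factors of the program in this class fell at day 6. Foxm1 was at 136, 235, 181 and 196 in YAP1on tumors, 13.01, 25.2, 12.5 and 17.05 at day 6, 38.2, 40.7 and 44.7 in hbHep and 9.92, 13.3 and 15.9 in FAH liver. It was 10.7-fold lower at day 6 (adjusted p = 1.83e-07) and still 4.38-fold lower in hbHep than in YAP1on tumors (adjusted p = 7.85e-06). Mybl2, which encodes B-MYB, was lower at day 6 (-1.36) and was the gene of this class that did not pass between hbHep and YAP1on tumors (-0.82, adjusted p = 0.0804). Pbk, a mitotic kinase, was low throughout, at 38.1, 62.1, 46.5 and 35.1 in YAP1on tumors, 3.88, 4.43, 1.86 and 2.41 at day 6, 18.7, 17.2 and 11.4 in hbHep and 4.56, 2.22 and 2.85 in FAH liver. Its day 6 and FAH levels overlapped, and both lay below every hbHep sample. The kinase Melk fell by 3.09 at day 6 and averaged 7.61 in hbHep against 2.57 in FAH liver.

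All 12 genes of spindle assembly and its motors fell at day 6 (median log2 difference -2.47), and all 12 were above FAH liver in hbHep (median 1.96). Depdc1a (ENSMUSG00000028175, chromosome 3, 159495414 to 159529955), a protein of the dividing cell with a role in spindle behaviour, was at 268, 326, 307 and 187 in YAP1on tumors, 10.04, 5.31, 11.5 and 13.3 at day 6, 81.97, 38.1 and 65.2 in hbHep and 0, 8.902 and 11.6 in FAH liver. Its fall at day 6 was the widest of the 58 genes (log2 difference -4.66, SE 0.60, adjusted p = 3.49e-05). FAH liver 1 is listed at 0, and the hbHep difference from YAP1on tumors lost its call with a pseudocount of 0.1 (adjusted p = 0.122). With that pseudocount the hbHep difference from day 6 lost its call too (adjusted p = 0.0763). Ckap2, a microtubule-stabilizing protein, was at 147, 221, 187 and 168 in YAP1on tumors, 11.2, 17.3, 5.91 and 9.81 at day 6, 108, 66.1 and 84.97 in hbHep and 12.7, 7.64 and 4.98 in FAH liver. It was 15.8-fold lower at day 6 (adjusted p = 3.17e-07) and 9.61-fold higher in hbHep than in FAH liver (adjusted p = 5.30e-06).

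Tpx2, which activates Aurora A on the spindle, was at 441, 694, 609 and 640.3 in YAP1on tumors, 57.6, 94.3, 42.5 and 43.8 at day 6, 328, 238 and 239 in hbHep and 35.5, 53.3 and 36.8 in FAH liver. No hbHep value overlapped any other group, and the day 6 and FAH values overlapped. With the same total signal Tpx2 passed as higher at day 6 than in FAH liver (1.12, adjusted p = 0.00181). Aurka, which encodes Aurora A, fell by 1.61 at day 6. Its hbHep mean of 211 lay between 332 in YAP1on tumors and 128 in FAH liver. Kif11 (ENSMUSG00000012443, chromosome 19, 37376382 to 37421863), the bipolar kinesin that pushes spindle poles apart, was at 258, 417, 360.3 and 317 in YAP1on tumors, 69.02, 77.1, 53.98 and 59.4 at day 6, 123, 93.7 and 97.8 in hbHep and 42.8, 40.1 and 43.2 in FAH liver. For Kif11 the difference between hbHep and day 6 was small (log2 difference 0.69, SE 0.18, adjusted p = 0.00692). Taken from the second technical library of each hbHep mouse alone, it did not pass (adjusted p = 0.0539).

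Nek2, a kinase that frees the duplicated centrosomes, was at 102, 144, 109.8 and 118 in YAP1on tumors, 21.4, 32.4, 17.3 and 34.8 at day 6, 153, 155 and 155 in hbHep and 52.7, 20.6 and 30.5 in FAH liver. Each hbHep value lay above each YAP1on value, yet the difference did not pass (log2 0.39, 95% interval -0.23 to 1.00, adjusted p = 0.267). The fall at day 6 did pass (-2.16, adjusted p = 2.54e-05). Among the other kinesins, Kif18b and Kif4 fell at day 6 (-3.47 and -2.51) and were higher in hbHep than at day 6 (2.12 and 1.58). Kif4 was low at day 6, with a mean of 5.30. Kif15, which backs up Kif11, and Kif22, a chromosome arm motor, fell (-1.74 and -1.52). Neither passed between hbHep and day 6 (0.28 and 0.29). The spindle proteins Hmmr (-2.43) and Nusap1 (-2.61) fell at day 6, and hbHep stood above day 6 for both (1.66 and 1.17).

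**Figure D3:**
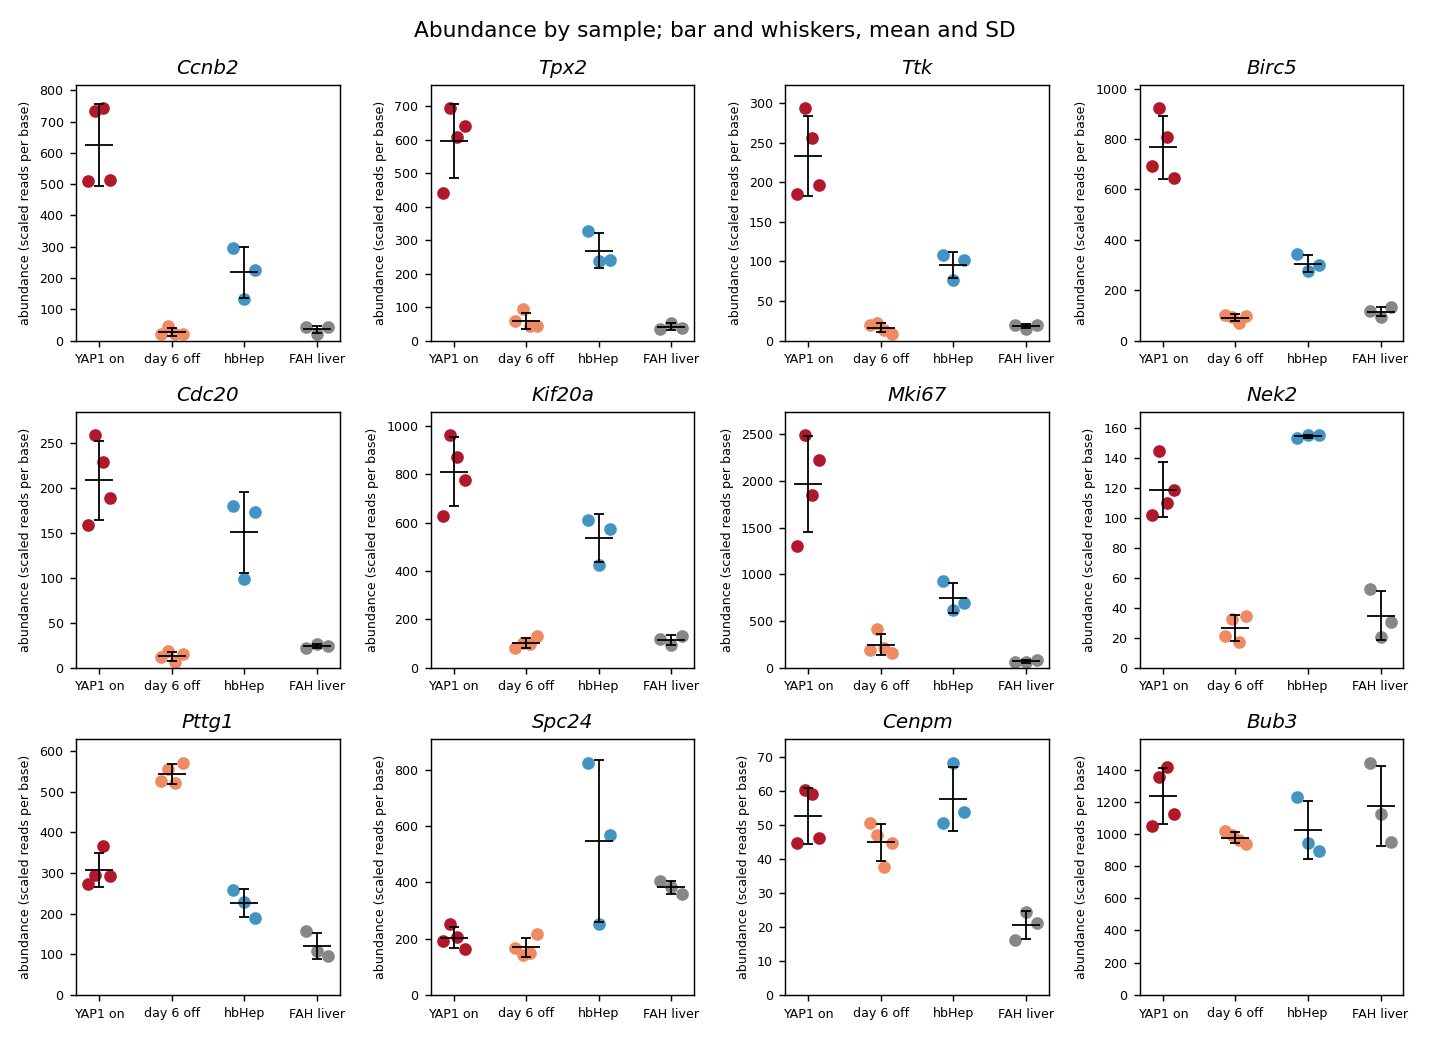
Abundance in scaled reads per base (vertical axes, each from 0) in every sample of the 4 groups for 12 genes; points are samples, the bar is the mean and the whiskers the SD. In the upper row and for Cdc20, Kif20a and Mki67 the day 6 points lie near those of FAH liver or between it and hbHep, while Pttg1 is highest at day 6. Spc24 has its highest mean in hbHep, with an hbHep point below those of FAH liver. The 4 groups lie close together for Bub3.

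The 15 genes of the kinetochore and the spindle checkpoint were mixed. At day 6, 12 fell and 3 did not pass (median log2 difference -2.34), and in hbHep against FAH liver 10 were higher and 5 did not pass. Bub3 (ENSMUSG00000066979, chromosome 7, 131560367 to 131571895), a checkpoint protein with further roles in interphase, was the most abundant of the 15 in YAP1on tumors. It was at 1049, 1351, 1416 and 1125 in YAP1on tumors, 1017, 991, 959 and 939 at day 6, 1228, 942 and 896 in hbHep and 1444, 1122 and 952 in FAH liver. The 4 day 6 tumors lay below the 4 YAP1on tumors and all other pairs of groups overlapped, and none of the 6 comparisons passed in the fit used here (log2 differences from -0.33 to 0.09). Its day 6 difference was -0.33 (95% interval -0.63 to -0.03, adjusted p = 0.110). It passed as a fall with quantile normalization (-0.49, adjusted p = 0.00650), with the same total signal (-0.61, adjusted p = 0.00124) and in a fit of those 2 groups alone (adjusted p = 0.0399). In hbHep, Bub3 passed as lower than in YAP1on tumors when hbHep 1 was left out (-0.42, adjusted p = 0.0441). The same held with quantile normalization (-0.57, adjusted p = 0.00156) and the same total signal (-0.70, adjusted p = 2.65e-04). With these 2 scalings YAP1on tumors passed above FAH liver (0.49, adjusted p = 0.00340, and 1.06, adjusted p = 1.94e-06). With the same total signal, so did day 6 (0.45, adjusted p = 0.00546) and hbHep (0.36, adjusted p = 0.0385).

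Its partners moved much further. Mad2l1, the checkpoint inhibitor of CDC20, was at 571, 649.6, 541 and 358 in YAP1on tumors, 137, 117, 154 and 133 at day 6, 283, 252 and 228 in hbHep and 244, 235 and 224 in FAH liver. It was 3.82-fold lower at day 6 than in YAP1on tumors (adjusted p = 5.80e-07), and lower at day 6 than in FAH liver (log2 difference -0.79, adjusted p = 0.00101). With the same total signal the second of these did not pass (adjusted p = 0.612). Ttk, the MPS1 kinase that starts the checkpoint, fell from a mean of 233 to 16.2 and stood at 95.2 in hbHep. Bub1 and Bub1b fell (-3.34 and -2.85), as did Sgo1, which protects centromeric cohesion (-2.44). Bub1 and Sgo1 were near the floor, with means of 3.63 and 3.49 at day 6 and 2.03 and 1.21 in FAH liver. In hbHep, Bub1 and Bub1b were higher than at day 6 (1.56 and 1.01), and Sgo1 did not pass (0.86, adjusted p = 0.0763).

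The NDC80 complex, which grips microtubules, has 4 subunits, and all 4 are in the set. Ndc80 and Nuf2, which hold the microtubule-binding end, fell at day 6 (-1.67 and -3.15). Spc25, at the inner end, was at 381, 453, 356 and 222 in YAP1on tumors, 73.1, 89.4, 49.9 and 59.9 at day 6, 153, 183 and 136 in hbHep and 204, 195 and 144 in FAH liver. It fell at day 6 (-2.34, adjusted p = 2.24e-06), to 2.67-fold below FAH liver (adjusted p = 1.19e-04). Its hbHep and FAH levels overlapped (log2 difference -0.20, 95% interval -0.75 to 0.35).

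Spc24 (ENSMUSG00000074476, chromosome 9, 21755434 to 21760446), the direct partner of Spc25, followed another course, at 192, 252, 206 and 163 in YAP1on tumors, 167, 142, 149 and 217 at day 6, 826, 251 and 568 in hbHep and 406, 384 and 359 in FAH liver. Its YAP1on and day 6 tumors overlapped (-0.27, adjusted p = 0.535). It was higher in hbHep than in YAP1on tumors (1.28, SE 0.29, adjusted p = 0.00169), the only rise of the set in that comparison. The hbHep values were uneven, with mouse 2 inside the range of the YAP1on tumors. YAP1on tumors were below FAH liver (-0.93, adjusted p = 0.0109), the only such gene, but with the same total signal that difference reversed to 0.05 (adjusted p = 0.867). Between hbHep and FAH liver it did not pass (0.36, adjusted p = 0.400) unless hbHep 2 was left out (0.84, adjusted p = 0.00846) or the same total signal was used (0.91, adjusted p = 0.0134).

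At the centromere, Cenpa, the histone H3 variant that marks it, was at 511, 606, 489 and 384 in YAP1on tumors, 133, 135, 132 and 144 at day 6, 206, 128 and 183 in hbHep and 145, 149.6 and 168 in FAH liver. It fell at day 6 (-1.85, adjusted p = 8.09e-07), and hbHep overlapped FAH liver. Its difference between hbHep and day 6 (0.31, adjusted p = 0.150) passed without hbHep 2 (0.51, adjusted p = 0.0215). Cenpm, a subunit of the constitutive centromere network, was at 44.6, 60.3, 59.2 and 46.3 in YAP1on tumors, 50.5, 46.99, 37.6 and 44.6 at day 6, 50.5, 68.4 and 53.9 in hbHep and 16.2, 24.3 and 21.3 in FAH liver. YAP1on tumors overlapped both day 6 tumors and hbHep, and the lowest hbHep mouse lay just above the highest day 6 tumor. Neither day 6 (-0.22, 95% interval -0.64 to 0.20) nor hbHep (0.13, -0.32 to 0.58) passed against YAP1on tumors. Cenpm was lower in FAH liver than in each of the others (log2 differences of 1.31, 1.10 and 1.45 for YAP1on, day 6 and hbHep). Cenpf, a large protein of the outer kinetochore, was at 198, 258, 213 and 235 in YAP1on tumors, 23.6, 29.6, 42.1 and 22.4 at day 6, 109, 104 and 129 in hbHep and 27.5, 37.6 and 27.1 in FAH liver. It was higher in hbHep than at day 6 by a log2 difference of 1.96 (adjusted p = 5.01e-06). The motor Cenpe (-2.77) and the microtubule depolymerase Kif2c (-1.96) fell at day 6, where Cenpe averaged only 3.86.

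All 4 subunits of the chromosomal passenger complex, which corrects faulty attachments and then moves to the midzone, fell at day 6 (median -2.26) and were above both day 6 and FAH liver in hbHep (medians 1.04 and 1.44). Birc5 (ENSMUSG00000017716, chromosome 11, 117849237 to 117855743), which encodes survivin, was the most abundant, at 692, 922, 809 and 644 in YAP1on tumors, 99.9, 92.9, 70.5 and 98.8 at day 6, 342, 277 and 298 in hbHep and 118, 94.96 and 131 in FAH liver. It was 8.39-fold lower at day 6 (log2 difference -3.07, SE 0.16, adjusted p = 6.22e-09), and its promoter window, printed above, held neither kind of match. Its day 6 and FAH levels did not pass (-0.34, adjusted p = 0.0890), except without FAH liver 2 (-0.47, adjusted p = 0.0348) or with quantile normalization (-0.66, adjusted p = 0.00221). Aurkb, the kinase of the complex, was at 94.3, 158, 149 and 137 in YAP1on tumors, 23.8, 22.8, 21.6 and 11.1 at day 6, 43.9, 39.6 and 58.6 in hbHep and 11.1, 13.7 and 27.3 in FAH liver. Each hbHep value lay above every day 6 and FAH value. Incenp, the scaffold, and Cdca8, which encodes borealin, fell (-1.65 and -1.79).

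The 4 genes of anaphase onset did not move together, with 3 lower and 1 higher at day 6. Cdc20 (ENSMUSG00000006398, chromosome 4, 118432901 to 118437343), the activator of the APC/C in mitosis, was at 159, 259, 229 and 189 in YAP1on tumors, 11.6, 18.2, 6.81 and 15.03 at day 6, 179.9, 98.7 and 174 in hbHep and 22.1, 26.6 and 23.9 in FAH liver. It was 15.7-fold lower at day 6 (log2 difference -3.97, SE 0.28, adjusted p = 1.22e-07) and lower there than in FAH liver (-0.93, adjusted p = 0.0130). The latter call was lost with the same total signal (adjusted p = 0.401). In hbHep it was 11.1-fold higher than at day 6 (adjusted p = 3.49e-07), the widest such difference of the 58, and did not pass against YAP1on tumors (-0.49, adjusted p = 0.172). Ube2c, the ubiquitin-conjugating enzyme of the APC/C, was at 504, 762, 780.3 and 635 in YAP1on tumors, 92.7, 133, 73.04 and 85.1 at day 6, 476, 302 and 313 in hbHep and 161, 89.3 and 97.1 in FAH liver. It fell at day 6 (-2.81, adjusted p = 5.01e-07) and hbHep lay between YAP1on tumors and the other groups with no overlap.

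Pttg1 (ENSMUSG00000020415, chromosome 11, 43420244 to 43427463) encodes securin, the inhibitor of separase. It was at 273, 294, 367 and 292 in YAP1on tumors, 525, 556, 521 and 571 at day 6, 259, 229 and 189.9 in hbHep and 158, 107 and 96.02 in FAH liver. Each day 6 tumor lay above every other sample. It rose at day 6 by 0.83 on the log2 scale (SE 0.15, adjusted p = 9.74e-04), the only rise among the 58, and was the only gene lower in hbHep than at day 6 (-1.27, adjusted p = 2.43e-05). The rise held when any 1 sample was left out. Its difference between hbHep and YAP1on tumors (-0.44, adjusted p = 0.0362) did not pass without hbHep 2 (adjusted p = 0.0607) or 3 (adjusted p = 0.163), nor without YAP1on tumor 2 (adjusted p = 0.0534) or 3 (adjusted p = 0.106). Espl1 encodes separase, the protease that securin holds, and was at 47.8, 37.5, 67.5 and 83.3 in YAP1on tumors, 10.9, 29.8, 12.5 and 18.9 at day 6, 10.9, 19.01 and 18.8 in hbHep and 2.68, 10.2 and 7.39 in FAH liver. It fell at day 6 (-1.70, adjusted p = 0.00509), and hbHep overlapped day 6 (-0.08, 95% interval -0.99 to 0.83). Its difference between hbHep and FAH liver (1.25, adjusted p = 0.0419) was lost without any 1 of hbHep 2 or 3, FAH liver 1 or 3, day 6 tumor 4 or YAP1on tumor 1 or 3 (adjusted p = 0.0508 to 0.195). Against day 6 the difference from FAH liver was lost without FAH liver 1 (adjusted p = 0.0894).

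All 7 cytokinesis genes fell at day 6 (median -2.73) and all 7 were above FAH liver in hbHep (median 1.44). Prc1 (ENSMUSG00000038943, chromosome 7, 80294445 to 80316259), which bundles the midzone microtubules, was at 661, 1024, 776 and 785 in YAP1on tumors, 152, 194, 179.5 and 269 at day 6, 426, 392 and 372 in hbHep and 98.3, 182 and 269.9 in FAH liver. It was 4.11-fold lower at day 6 (adjusted p = 2.18e-05), and hbHep lay between the groups (1.02 against day 6, adjusted p = 0.00583). Kif20a, the kinesin that brings the passenger complex to the midzone, was at 629.5, 962, 874 and 777 in YAP1on tumors, 82.2, 103, 98.1 and 130.3 at day 6, 609, 424 and 575 in hbHep and 119, 93.1 and 132 in FAH liver. It stood at 66.2% of the YAP1on level in hbHep, against 12.8% at day 6. The hbHep difference from YAP1on tumors (-0.60, adjusted p = 0.0158) was lost without hbHep 2 (adjusted p = 0.0857) or YAP1on tumor 2 (adjusted p = 0.0501). Ect2, the activator of RhoA at the cleavage site, was at 201, 296, 279 and 227 in YAP1on tumors, 38.7, 27.2, 22.6 and 41.9 at day 6, 64.6, 71.6 and 52.8 in hbHep and 10.9, 12.1 and 25.5 in FAH liver. It was at 25.1% of the YAP1on level in hbHep, the lowest of the class, and higher than at day 6 by 0.96 (adjusted p = 0.0129). From the second technical library of each hbHep mouse alone, the difference from day 6 did not pass (0.73, adjusted p = 0.0564).

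Racgap1 and Kif23, the 2 subunits of centralspindlin, fell at day 6 (-2.88 and -1.67). In hbHep, Racgap1 was higher than at day 6 (1.69, adjusted p = 1.03e-04) while Kif23 did not pass (0.19, 95% interval -0.27 to 0.64). Whether these 2 differences from day 6 themselves differ was not tested. Anln, an actin-ring scaffold, and Kif20b fell (-2.73 and -2.25).

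Both chromosome proteins fell at day 6. Mki67 (ENSMUSG00000031004, chromosome 7, 135689784 to 135716450), which coats mitotic chromosomes and marks cycling cells, had the highest mean of the set in YAP1on tumors, and Bub3 had it in the other 3 groups. Mki67 was at 1299.7, 2487, 1844 and 2225 in YAP1on tumors, 194, 412, 209 and 162 at day 6, 932, 622 and 688 in hbHep and 58.3, 64.7 and 84.7 in FAH liver. The groups did not overlap and stood in the order YAP1on, hbHep, day 6 and FAH liver. It remained 3.31-fold higher at day 6 than in FAH liver (log2 difference 1.73, SE 0.28, adjusted p = 8.35e-05). Top2a, the topoisomerase that untangles sister chromatids, was at 330.0, 524, 447 and 426 in YAP1on tumors, 60.5, 95.8, 64.6 and 62.5 at day 6, 168, 179 and 128 in hbHep and 37.8, 39.02 and 40.9 in FAH liver. It fell by 2.60 at day 6 (adjusted p = 1.29e-07) and was also above FAH liver there (0.81, adjusted p = 0.00216), a call that quantile normalization ended (adjusted p = 0.118).

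**Figure D4:**
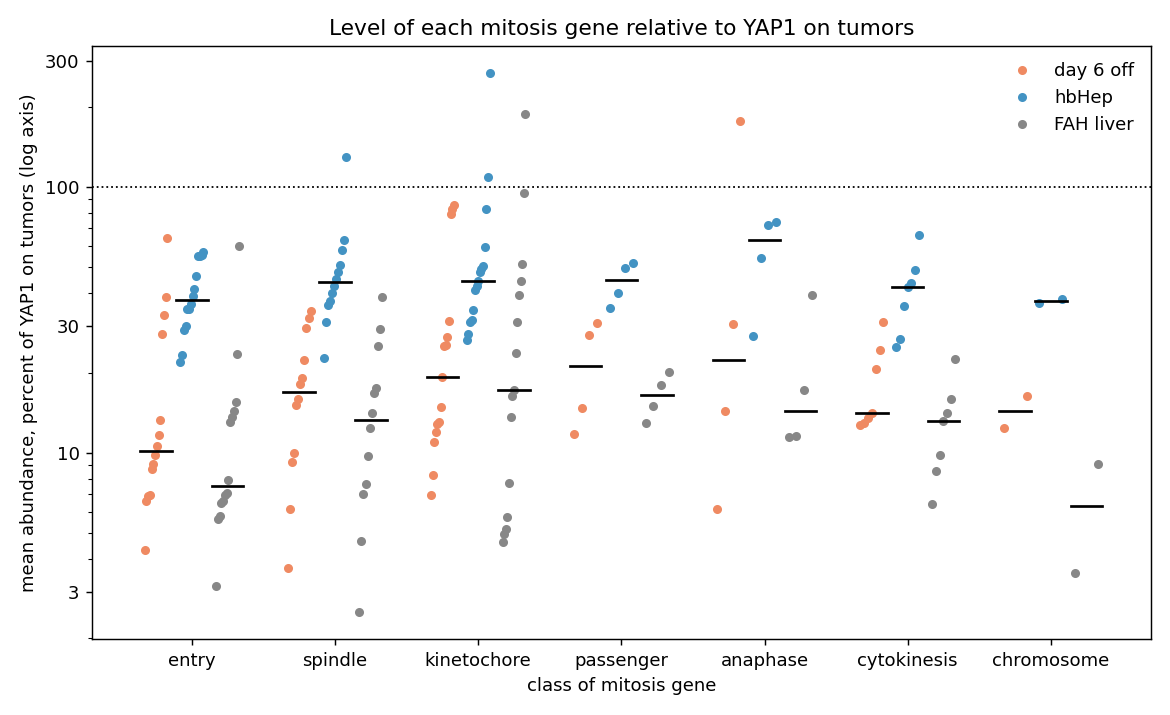
Mean abundance of each gene as a percent of its mean in YAP1on tumors (vertical axis, log scale) by class (horizontal axis); points are genes, black bars class medians, and the dotted line is the YAP1on level. Class medians at day 6 run from 10.2% for entry to 22.4% for anaphase, and in hbHep from 37.4% for chromosome proteins to 63.2% for anaphase.

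Whether day 6 tumors had reached the level of FAH liver depended on the gene and on the scaling. In the fit used here 19 genes were higher at day 6, 6 were lower (Ccnf, Cdca3, Mad2l1, Spc24, Spc25 and Cdc20) and 33 did not pass (background 31.8% higher and 30.9% lower), with a median of 0.41. The count of genes higher was close to the background share, and the count lower was below it. With quantile normalization 9 were higher and 11 lower, and with the same total signal in each library 42 were higher and 1 lower. The latter scaling moved the median of all genes to 0.74, and relative to that median the set stood at 0.28, against 0.37 in the fit used here. With quantile normalization it stood at 0.09 relative to the median of all genes. Leaving out 1 sample gave 0.13 (without FAH liver 1) to 0.49 (without FAH liver 2). Of the 19, the widest were Pttg1 (2.20), Cdc25b (1.96), Mki67 (1.73) and Cdkn3 (1.63).

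Within groups, single samples were high or low for many genes at once. Among YAP1on tumors, tumor 2 was highest for 47 of 58 genes and tumor 1 lowest for 40. At day 6 tumor 2 was highest for 26 and tumor 3 lowest for 32. Among hbHep mice, mouse 1 was highest for 35 and mouse 2 lowest for 32. The coefficient of variation had a median over the 58 genes of 18.98% in YAP1on tumors, 25.6% at day 6, 18.3% in hbHep and 27.3% in FAH liver. Leaving out each sample in turn kept the number of genes lower at day 6 than in YAP1on tumors between 53 and 54, and the number higher in hbHep than in FAH liver between 49 and 52.

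The 2 technical libraries of an hbHep mouse differed by a median of 1.17-fold and 1.19-fold over the 58 genes in mice 1 and 2, and by 1.53-fold in mouse 3. In mouse 3 the first library was higher for 50 of 58 genes, 8 of them by at least 2-fold. Ttk, at 156 and 46.1, was furthest apart. The tumor and fetal liver marker Afp was at 6538 and 603 in the same 2 libraries. Among marker lists, the 4 fetal liver and tumor markers summed to 3620 to 23490 in hbHep, against 240.4 to 285 in FAH liver, and all 4 were higher in hbHep. They summed to 594 to 697 at day 6 and 3138 to 8288 in YAP1on tumors, where Gpc3 alone was at 3004 to 8095. The other 3 were low in YAP1on tumors: Afp at 79.2 to 175.5, Igf2 at 16.3 to 85.7 and Dlk1 at 0.805 to 1.06. The 7 macrophage markers summed to 8587 to 23210 in hbHep, 3747 to 6754 in FAH liver, 12630 to 16590 at day 6 and 20290 to 31230 in YAP1on tumors, with 6 of 7 higher in hbHep than in FAH liver. The 8 markers of T, NK and B cells summed to 201 to 261 in hbHep, 89.5 to 119 in FAH liver, 513 to 634 at day 6 and 252 to 367 in YAP1on tumors. For erythroid precursors (7 markers) the range of sums was 5445 to 9189 in hbHep mice, 6118 to 9437 in FAH mice, 13710 to 36560 at day 6 and 9806 to 21040 in YAP1on tumors. The 6 stellate and fibroblast markers summed to 3151 to 6937 in hbHep, 4452 to 6826 in FAH liver, 7294 to 11240 at day 6 and 5298 to 10340 in YAP1on tumors. Between YAP1on and day 6 tumors, 5 of 7 hepatocyte markers were higher at day 6 (background 12.8% higher and 10.9% lower). So were 3 of 8 markers of T, NK and B cells, 1 of 7 erythroid and 1 of 6 endothelial markers. Lower at day 6 were 4 of 5 bile duct markers (sums of 28720 to 37830 with YAP1 on and 2551 to 7448 at day 6). So were 2 of 6 stellate and fibroblast markers, 1 of 7 macrophage markers and 1 of 4 fetal liver and tumor markers. In hbHep against FAH liver (background 20.0% higher and 17.0% lower), 3 of 7 hepatocyte and 1 of 6 endothelial markers were lower, with 0 higher. Higher were 3 of 8 T, NK and B cell, 2 of 6 stellate and fibroblast and 2 of 5 bile duct markers, with 0 lower. Of 7 erythroid markers 1 was higher and 2 were lower. No marker was listed at 0 throughout a group. The part of these cells in the levels of the mitosis genes was not tested.

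Genes that work beside the set were followed in 6 lists. Against YAP1on tumors at day 6, where 10.9% of all genes were lower and 12.8% higher, 7 of 8 condensin subunits fell, led by Ncapg (-2.69), and 22 of 30 other kinetochore genes fell, led by Ska1 (-4.03); none of either list rose. Of 15 regulators of CDK1 and of the phosphatases that oppose it, a list that holds both activators and inhibitors, 7 fell and 0 rose, with the CDK adaptor Cks1b at -1.74. Of 10 cohesin genes 2 fell and 0 rose, led by Cdca5, which encodes sororin (-3.08). The APC/C subunits (5 of 15 fell, Cdc16 furthest at -0.58) and the MuvB and DREAM subunits (3 of 11 fell, Rbl1 furthest at -0.74) had medians of -0.17 and -0.12. Medians of cohesin and condensin were 0.02 and -1.03.

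In hbHep against day 6, where 24.1% of all genes were higher and 21.7% lower, 14 of 30 other kinetochore genes were higher and 1 lower, with Ska1 at 2.22 and Cenpl at -1.61. Condensin had 4 of 8 higher and 1 lower, with Ncapg at 1.22 and Ncapd2 at -2.35. Ncapd2 averaged 13150 at day 6 (SD 9327) and 2229 in hbHep, far above the other condensin genes (Ncapd3, the next, at 579.5 and 678). Overlap with other genes was not looked up for the genes of these lists. The CDK1 list had 6 of 15 higher and 2 lower, with Arpp19, an inhibitor of the phosphatase PP2A, at 2.60 and the CDK1 inhibitory kinase Pkmyt1 at -1.49. Cohesin had 2 of 10 higher and 1 lower, APC/C 5 of 15 and 1, and MuvB and DREAM 2 of 11 and 1, shares of higher genes of the order of the background. Against FAH liver, where 20.0% of all genes were higher in hbHep and 17.0% lower, 16 of 30 other kinetochore genes were higher and 1 lower (Mad1l1, -0.72), and 4 of 8 condensin subunits were higher and 0 lower (Ncaph at 1.16). Cohesin had 1 higher (Cdca5, 1.27) and 1 lower (Stag2, -0.50). The CDK1 list had 4 higher and 2 lower (Cks2 at -0.83 and Ppp1cc), APC/C 2 higher and 1 lower, and MuvB and DREAM 1 higher and 2 lower.

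Open chromatin was mapped with Omni-ATAC (a transposase cuts DNA where it is exposed) in 1 library each of YAP1on tumor, livers 14, 33 and 64 days after YAP1 was turned off, and liver labeled WT. The authors' intervals were set against the start sites of the 49 genes with a RefSeq promoter. The start site lay inside an interval for 7 of 49 genes in YAP1on (14.3%, beside 24.9% of all genes tested in RNA), 28 at day 14 (57.1% beside 64.2%), 38 at day 33 (77.6% beside 67.7%), 35 at day 64 (71.4% beside 65.8%) and 22 in liver (44.9% beside 62.2%). The lists differ in kind: the median interval was 21 bases wide in YAP1on and 61 to 71 in the others. Counted instead by any interval from 250 bases before to 50 after the start, 42 genes had one in YAP1on (85.7% beside 78.7%) and 48 in each of the 4 others (98.0% beside 82.1% to 84.1%). Kif2c was the gene without one in any library, and Nek2, Cenpa, Cenpm, Nuf2, Cdca8 and Top2a lacked one in YAP1on. With 1 library of each kind there is no test, and none of these differences has a replicate check.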

How the data were processed

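RNA of fresh or flash-frozen liver was isolated with Trizol and chloroform and sequenced in 17 libraries, per the labels' protocols. The authors deposited 1 signal value per gene and library. Its unit is not stated and was taken to be scaled reads per base. The submitters' processing notes name bcl2fastq, kallisto 0.45.0, sleuth and the build GRCm38.p6. For ATAC, interval lists on mm10 were deposited; the notes name bcl2fastq, cutadapt, BWA, SAMtools and Picard. The sources used here do not give the program that called the intervals.

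Each hbHep mouse had 2 technical libraries, averaged to 1 sample, which left 14 samples. Values were divided by median-of-ratios factors (0.959 to 1.09) to give abundance. Genes with an abundance of at least 10 in at least 3 samples (17958) were tested on log2(abundance + 1) with limma 3.58.1 (R 4.3.3; lmFit, then eBayes with trend), all 4 groups in a single model, adjusted after Benjamini and Hochberg at a threshold of 0.05. Differences on this scale understate changes of low genes. The script was tested on simulated data. Whole reads were not recovered, so no count model was run and depth is unknown beyond the relative values given. Nothing says that the tumors of 1 mouse arose apart, so p-values measure the spread between these samples.

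Values in every sample are given for the 2 most abundant genes of each class, the 3 widest and 3 narrowest differences of each comparison, and genes that moved against their class; 32 genes met this rule. Genes of other lists are named where they had the widest rise or fall. The members, classes and lists were chosen with earlier results of these data known. Coordinates and promoters are from RefSeq (GRCm38.p6). Alternatives were other scalings, pseudocounts, filters and model settings, single technical libraries, a replicate block and leaving out each sample.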

Additional observations from a re-analysis of the deposited data

Results flagged for a closer look

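In groups of 4 samples, a sample far from the other 3 (by Dixon's test of its gap over the group's range) was looked for in each gene and tumor group. Of 116 such groups 3 had one, where chance would mark about 5%, and all 3 were day 6 tumor 2. Ccna2 was 103 there, against 66.9 to 71.9 in the other day 6 tumors. Ccnb2 was 45.5 against 20.2 to 21.0, and Top2a was 95.8 against 60.5 to 64.6. Groups of 3 were not examined.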

How the results depend on the processing

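Among RNA alternatives, scaling alone moved a count of higher or lower genes by over 1.5 times. Scaled to the same total signal, 0 genes were lower in YAP1on tumors than in FAH liver, and day 6 against FAH liver had 42 higher and 1 lower; quantile normalization gave 9 higher and 11 lower. The same total signal also turned the sign of Spc24 between YAP1on tumors and FAH liver (0.0492), of Bub3 (0.45), Kif20a (0.53), Cenpf (0.58) and Cenpa (0.51) between day 6 and FAH liver, and of Bub3 between hbHep and FAH liver (0.36). That scaling moves the median of all genes, to 1.03 in the first of these comparisons and 0.74 in the second. Counting any interval from 250 bases before to 50 after the start gave 42 genes in YAP1on, 48 at day 14 and 48 in liver.

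Leaving out 1 sample at a time gave 53 to 54 genes lower at day 6 than in YAP1on tumors, 44 to 52 lower in hbHep than in YAP1on tumors, 43 to 45 higher in hbHep than at day 6, 49 to 52 higher in hbHep than in FAH liver, and 18 to 20 higher with 6 to 7 lower at day 6 than in FAH liver. Same-numbered samples of different groups did not deviate together (correlations -0.230 to 0.188 over 19 pairs). With a replicate block, 53 genes were lower and 1 higher at day 6 than in YAP1on tumors, 47 lower and 1 higher in hbHep than in YAP1on tumors, 44 higher and 1 lower in hbHep than at day 6, 51 higher and 0 lower in hbHep than in FAH liver, 56 higher and 1 lower in YAP1on tumors than in FAH liver, and 19 higher and 6 lower at day 6 than in FAH liver.

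Over the 32 genes named with all their values, 4894 recomputed values kept their side of the threshold, 51 were no longer past it, 29 came past it with the same sign, and the 6 above turned sign while past it in at least 1 of the fits compared. Of the 4894, 4846 kept their sign and 48, past the threshold in neither fit, turned it.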

Other observations

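Among the 49 genes with a promoter window, 34 held TTTGAA or TTCGAA within 50 bases of the start site and 15 did not. Their median log2 differences were -2.48 and -2.77 at day 6 against YAP1on tumors, -1.22 and -1.07 in hbHep against YAP1on tumors, and 1.03 and 1.48 in hbHep against day 6. Pttg1, Cenpm and Nek2 are among the 15 without such a match, and Bub3 and Cdc25b among the 34 with one.

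Between day 6 and hbHep, Pkmyt1 (-1.49), Ncapd2 (-2.35) and Cenpl (-1.61) were lower in hbHep while most genes of their lists that passed were higher. The 3 were also lower in hbHep than in YAP1on tumors (-2.78, -2.73 and -2.18). Levels of Ncapd2 were uneven among tumors, with means of 15520 (SD 5725) in YAP1on tumors and 13150 (SD 9327) at day 6.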
